A study of Mus musculus with 8 samples.

Results

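Somatostatin (Sst) interneurons were read from single-nucleus RNA sequencing of mouse brain hemispheres as nuclei that the authors had annotated as neurons and that held at least 2 UMIs of Gad1 and Gad2 together, at least 2 UMIs of Sst, and at most 1 UMI each of Slc17a7, Rgs9, Pvalb and Vip. A UMI (unique molecular identifier) stands for 1 captured RNA molecule. This gave 252 nuclei of 61949 in all, or 0.558 per 100 of the 45141 neuron nuclei and 3.07 per 100 of the 8197 GABAergic nuclei, which meet the same limits on Gad1, Gad2, Slc17a7 and Rgs9. The definition used measured values, so the levels of its 7 genes are given as a description.

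The study crossed mice that lack the myelin protein CNP with 5xFAD mice, whose transgenes, which include mutated human APP, are expressed in neurons under the Thy1 promoter, and which form amyloid plaques. All animals were on the C57BL6/J background and 6 months old. The 4 genotypes were WT (neither change), Cnp-/- (Cnp null, no transgenes), 5xFAD (transgenes, Cnp intact) and Cnp-/-;5xFAD (both), with 2 libraries each, and the cerebellum and olfactory bulb had been removed. The labels call the libraries replicates and tie none to single animals. The study's reporting summary describes each replicate of its single-cell work as a pool from a pair of animals. Its methods state such pooling only for its other single-nucleus dataset. Whether these libraries are pools is thus not settled, and p-values measure the spread between libraries.

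Sst interneurons are inhibitory neurons that arise in the medial ganglionic eminence, together with the fast-spiking Pvalb interneurons, under the transcription factors Lhx6, Sox6 and Satb1. Most contact the dendrites of excitatory neurons, and they comprise Martinotti cells, which reach the outermost cortical layer, other local cells, and a sparse type with long-range axons marked by Chodl, Nos1 and Npy. Their peptide, somatostatin, is cut from a precursor and stored in dense-core vesicles.

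The libraries held 6801 to 8824 nuclei and between 68905044 and 82399061 UMIs each. In the mature oligodendrocytes, Cnp stood at 219 to 321 CPM (counts of a gene per 1000000 UMIs of the summed nuclei) in the 4 libraries with Cnp and at 23.1 to 32.8 in the 4 Cnp-/- libraries, so these levels went with the labels. The Sst nuclei held only 24 Cnp UMIs in all and were no check. The libraries gave very unequal numbers of Sst nuclei, namely 24 and 89 in WT, 24 and 8 in Cnp-/-, 48 and 32 in 5xFAD, and 5 and 22 in Cnp-/-;5xFAD, in the order of replicates 1 and 2, which is kept for all values below. WT replicate 2 stood apart. It gave 101 of the 250 Pvalb nuclei used for comparison below, against 15 to 29 in each other library. Its Sst nuclei held 550 CPM of Sst against 193 to 362 in the other 7 libraries, and 0.758% of its excitatory nuclei held a Sst UMI against 0.0475% to 0.233% elsewhere, at median depths of 8812 to 13128 UMIs per excitatory nucleus. The summed Sst profiles ranged from 67354 UMIs in Cnp-/-;5xFAD replicate 1 to 1036375 in WT replicate 2, so the Cnp-/- side of each comparison rested on fewer molecules.

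The Sst transcript itself was thinly sampled. Members held 1050 Sst UMIs in all, with a median of 3 per nucleus (quartiles 2 and 5, highest 42), and 99 of the 252 held exactly 2. Just outside the definition lay 404 GABAergic nuclei with 1 Sst UMI, whose median depth was 9120 UMIs against 9942 in the members with 2. Grin3a was found in 88.9% of members with 2 Sst UMIs and in 66.8% of nuclei with 1, Satb1 in 85.9% and 68.8%, and Lhx6 in 47.5% and 36.6%. The step across the threshold was thus gradual, and many nuclei with 1 Sst UMI carried the same genes. The limits on Pvalb and Vip removed 6 and 4 nuclei. Members had a median of 10580.5 UMIs (3142 to 38352) and 3908.5 detected genes. A total of 3 members carried a barcode that also occurs in another library, and no 2 members shared one.

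Of the members, 215 (85.3%) belonged to the authors' cluster 8, a group of 2171 neurons. The other 37 lay in 6 other clusters, chiefly cluster 11 (15 nuclei) and cluster 0 (14). They were deeper, with a median of 17397 UMIs against 10201 in cluster 8, and 20 of them held exactly 2 Sst UMIs. Per CPM they carried less Sox6 (453 against 955), Nxph1 (1424 against 3336), Grin3a (405 against 1019) and Elfn1 (36.6 against 198), and more Adarb2 (896 against 114), a marker of interneurons from the caudal ganglionic eminence. Their split by genotype was uneven. They made up 35 of the 193 members in libraries with Cnp and 2 of the 59 in Cnp-/- libraries. By library they were 5 of 24 and 18 of 89 members in WT, 2 of 24 and 0 of 8 in Cnp-/-, 7 of 48 and 5 of 32 in 5xFAD, and 0 of 5 and 0 of 22 in Cnp-/-;5xFAD. WT replicate 2 alone gave 13 of the 15 in cluster 11. This uneven split bears on the genotype comparisons below.

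The members carried the genes that define the class. Levels are CPM in the summed profile of each library, compared within a gene between classes and never between genes, and are given as the median of 8 libraries for the Sst nuclei, for 250 Pvalb nuclei, 404 Vip nuclei and 17395 excitatory nuclei in that order. Grin3a, an NMDA receptor subunit, stood at 848, 55.6, 94.5 and 58.0 CPM. By library Grin3a was at 713 and 882 in WT, 696 and 811 in Cnp-/-, 945 and 814 in 5xFAD, and 1663 and 1186 in Cnp-/-;5xFAD. It was above the other 3 classes in all 8 libraries. Reln, the secreted protein reelin, was at 598, 48.6, 117 and 107 CPM and was also highest in all 8.

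Genes shared by descent from the medial ganglionic eminence were high in both Sst and Pvalb nuclei. Nxph1, a ligand of neurexins, was at 3006 CPM in Sst nuclei and 1909 in Pvalb nuclei, against 162 in Vip and 40.3 in excitatory nuclei. Sox6 was at 846 and 763 against 76.3 and 14.3, and Satb1 at 378 and 289 against 63.2 and 95.8. For Sox6 the Sst nuclei exceeded every other class in only 1 of 8 libraries, and for Satb1 in 7. Lhx6 was low but followed the same pattern, at 75.2, 42.9, 1.77 and 0.77 CPM, and 54.4% of members held a UMI of it. Nkx2-1, the embryonic factor upstream of Lhx6, was present as 1 UMI.

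Other genes were shared with different classes. Elfn1, a postsynaptic protein of Sst cells that sets the release properties of excitatory inputs, was at 173 CPM in Sst nuclei, 11.8 in Pvalb and 105 in Vip nuclei. Kcnc2, a fast potassium channel, was at 2129 in Sst nuclei and 2602 in Pvalb nuclei. Synpr, a synaptic vesicle protein, was at 943 in Sst nuclei, 84.4 in Pvalb and 1495 in Vip nuclei. Erbb4, the neuregulin receptor, was lower in Sst nuclei (2638) than in Pvalb (8460) or Vip nuclei (7072), and Adarb2 was at 188 in Sst nuclei, 436 in Pvalb and 13352 in Vip nuclei. Slc17a7 was at 4.04 CPM against 275 in excitatory nuclei, as the definition required.

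Further genes with a high ratio of the Sst median to the highest median of the other classes, at 50 CPM or more, were Npy, Tacr1, Nos1, Pard3b, Man1a, Mageb18, Unc13c, L3mbtl4, Ror2, Klf5, Klhl1, 4930473D10Rik and Lama4. Pard3b, a cell polarity gene, was at 229 CPM in Sst nuclei, 35.5 in Pvalb, 34.1 in Vip and 21.8 in excitatory nuclei. Man1a, a mannosidase of the Golgi apparatus, was at 547, 51.3, 113 and 133. Both were highest in Sst nuclei in all 8 libraries.

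**Figure D1:**
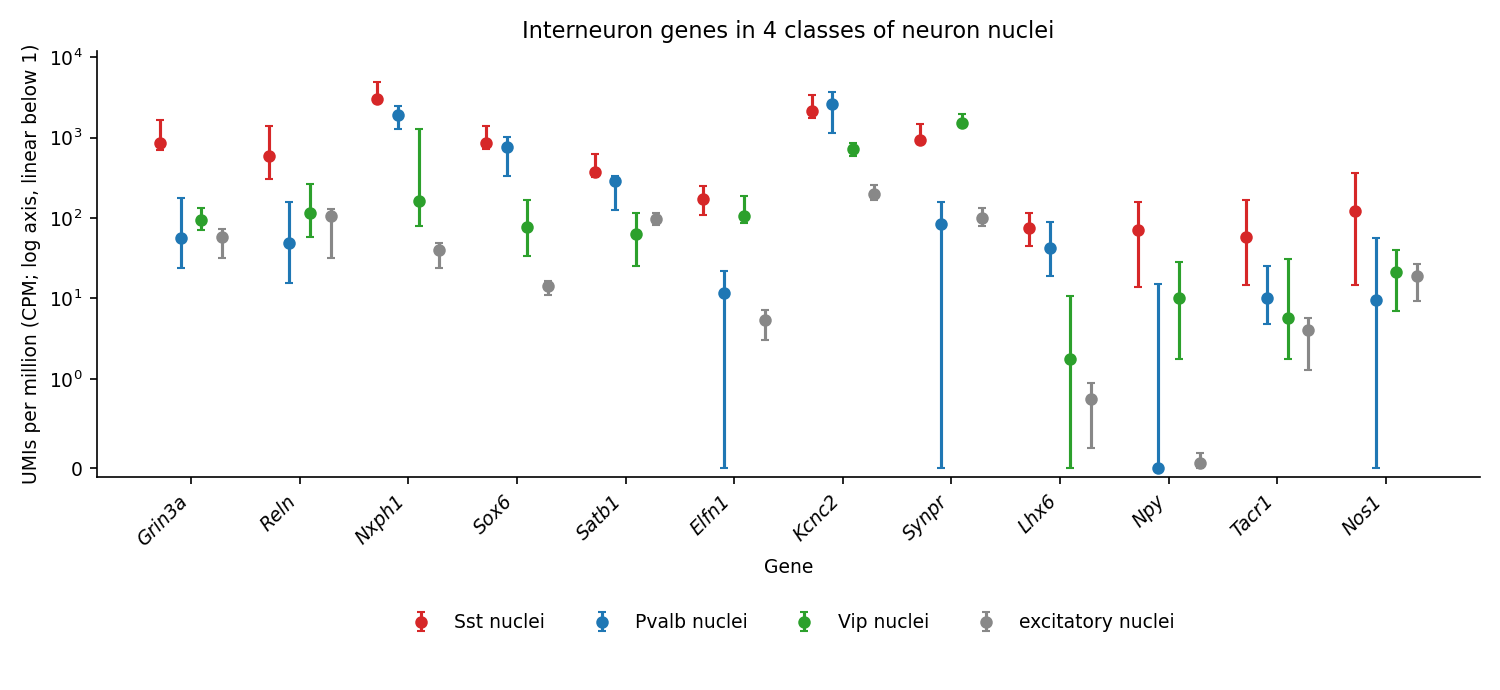
Levels of 12 interneuron genes in CPM (log axis that is linear below 1) in the summed Sst, Pvalb, Vip and excitatory nuclei. Points are medians of 8 libraries and bars run from the lowest to the highest library; Grin3a and Reln stand apart in Sst nuclei, while Nxph1, Sox6 and Satb1 are high in both Sst and Pvalb nuclei.

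The machinery of a peptide-releasing inhibitory neuron was present. Pam, which amidates peptides, was at 1068 CPM in Sst nuclei against 607 in Pvalb, 638 in Vip and 403 in excitatory nuclei, whereas Pcsk2, a convertase that cuts propeptides, was at 159 against 218, 454 and 935. Gad2 (341) and Gad1 (187), which make GABA, were part of the definition, and the vesicular GABA transporter Slc32a1 was at 28. The summed list of peptide processing genes lay between 3998 and 4443 CPM over the 8 libraries. It lay between 3542 and 4043 in Pvalb nuclei, 4047 and 4579 in Vip nuclei and 4786 and 5202 in excitatory nuclei, so the list did not mark the class. The receptors for the peptide were hardly seen in Sst nuclei, with 14 UMIs of Sstr1, 19 of Sstr2, 3 of Sstr3 and none of Sstr4 or Sstr5. This was not particular to the class. The summed receptor list had a median over libraries of 5.48 CPM in Sst nuclei, 6.85 in Pvalb, 5.00 in Vip and 12.8 in excitatory nuclei. App was at 421 CPM in Sst nuclei and 410 in Pvalb nuclei.

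Markers of other cells were present at varied levels. Summed markers of striatal projection neurons lay between 829 and 1797 CPM over the libraries and those of other interneurons, which include Erbb4, between 2318 and 5014. Summed excitatory markers lay between 449 and 718 CPM over the libraries, oligodendrocyte markers between 14.8 and 295, microglia markers between 39.4 and 161, and astrocyte markers between 175 and 1841. The highest astrocyte sum, in Cnp-/-;5xFAD replicate 1 with its 5 nuclei, was almost wholly Gpc5 (1796 CPM), which neurons also express.

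Subtype genes divided the members. Reln was found in 181 of 252 nuclei, Lhx6 in 137, Calb1 in 124, Npy in 90, Nos1 in 58, Hpse in 24, Calb2 in 18, Cort (cortistatin, a peptide related to somatostatin) in 17, Chodl in 13, Tac1 in 9 and Crh in 1. All 13 Chodl nuclei held Npy and 12 held Nos1, the combination known for the long-range type. Nuclei with Nos1 held Npy in 53.4% of cases against 30.4% of nuclei without Nos1, the substance P receptor Tacr1 in 36.2% against 9.79%, and Reln in 51.7% against 77.8%. Median depths of the nuclei with and without Nos1 were 10963 and 10242 UMIs.

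Among the members, 20 held 3 or more Nos1 UMIs, a limit set after the data were seen. They came from 7 libraries and had a sharper profile, given here as CPM in these 20 against the other members. Tacr1 was at 495 against 11.7, Npy at 342 against 51.6 and Chodl at 71.3 against 0.732. Reln, by contrast, was at 128 against 660, Calb1 at 35.6 against 126, Elfn1 at 64.1 against 174 and Pard3b at 71.3 against 246. Their Sst level was 264 against 357 CPM, and Lhx6 was at 92.6 against 78.7.

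Subtype make-up was compared between genotypes as the share of Sst nuclei per library with at least 1 UMI of each of 11 genes, with a two-sided exact permutation test over libraries and p-values adjusted over 22 tests. None passed. Npy was found in 16.7% and 34.8% of Sst nuclei in WT, 29.2% and 50.0% in Cnp-/-, 31.2% and 59.4% in 5xFAD, and 20.0% and 40.9% in Cnp-/-;5xFAD. Replicates of 1 genotype differed as much as genotypes did. The same held for Nos1, at 37.5% and 16.9%, 8.33% and 12.5%, 22.9% and 37.5%, and 20.0% and 31.8% in the same order.

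Cort gave the lowest p. Its UMIs were found in 12.5% and 8.99% of Sst nuclei in WT, 8.33% and 12.5% in Cnp-/-, 4.17% and 3.12% in 5xFAD, and in 0 of 5 and 0 of 22 nuclei in Cnp-/-;5xFAD, where the upper 95% Wilson limits are 43.4% and 14.9%. The 4 libraries with the transgenes lay below the 4 without (1.82% against 10.6% on average). The exact permutation p was 0.0286, the smallest that 70 relabellings of the libraries allow, and 0.629 after adjustment. Only 17 nuclei carried this difference. Reln was found in 80.5% ± 15.3 of Sst nuclei with 5xFAD and 66.1% ± 7.27 without (SD, n = 4 libraries; exact permutation p = 0.143).

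**Figure D2:**
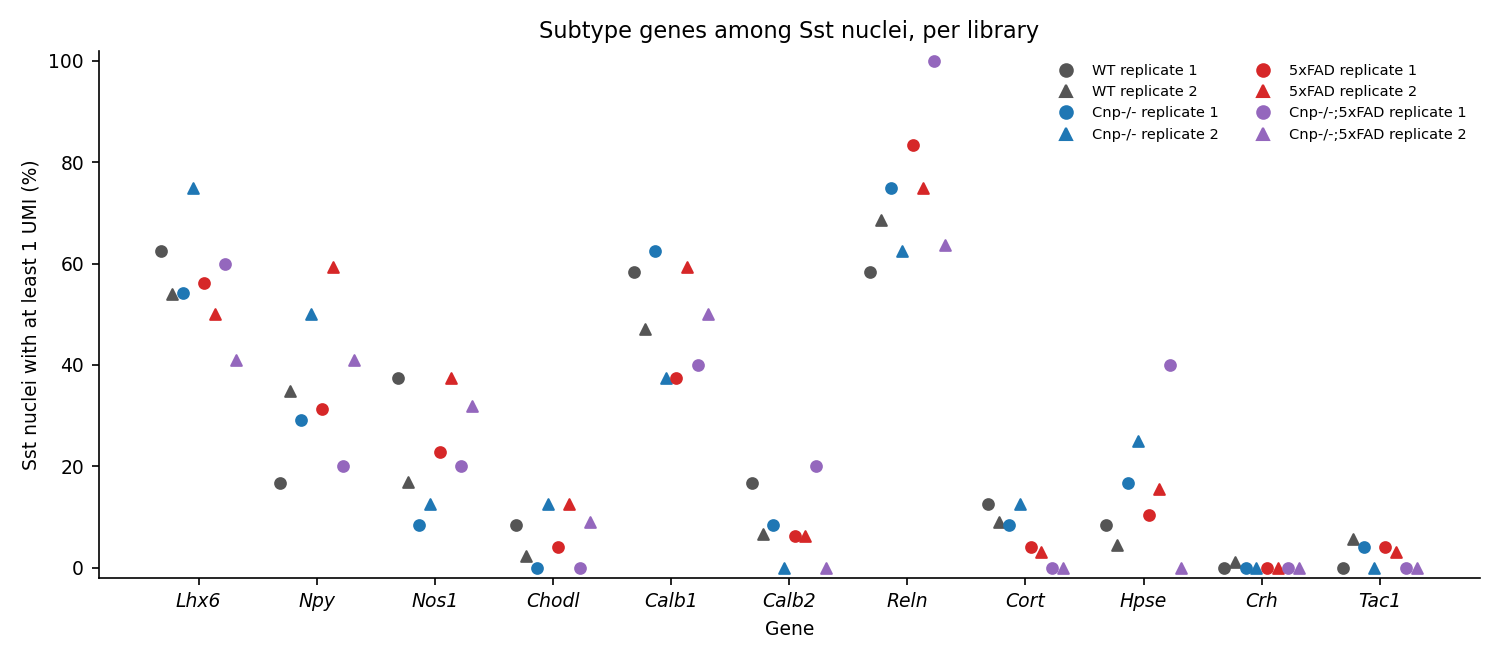
Share of Sst nuclei with at least 1 UMI of each of 11 subtype genes, 1 point per library, with genotype as colour and replicate as symbol. Of the 22 comparisons of 4 libraries against 4, the sides overlap in all but Cort with 5xFAD, where the 4 libraries with the transgenes (0% to 4.17%) lie below the 4 without.

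The abundance of Sst nuclei was compared next. They made up 0.392% and 1.60% of neuron nuclei in WT, 0.407% and 0.117% in Cnp-/-, 1.08% and 0.622% in 5xFAD, and 0.101% and 0.356% in Cnp-/-;5xFAD. The 4 Cnp-/- libraries averaged 0.245% ± 0.159 and the 4 libraries with Cnp 0.924% ± 0.535 (SD). The sides overlapped only through WT replicate 1 (0.392%) and Cnp-/- replicate 1 (0.407%). The share of excitatory nuclei with a Sst UMI, a measure of background, moved the same way, at 0.0475% to 0.101% in the 4 Cnp-/- libraries and 0.121% to 0.758% in the 4 others, without overlap, and its part in the result was not tested. The two-sided exact permutation p was 0.0571, and 0.229 adjusted over the 4 tests of abundance. Without WT replicate 2 the difference went from -0.678 to -0.451 percentage points (exact permutation p = 0.0571).

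As a share of GABAergic nuclei, the Sst nuclei were at 1.16% and 10.1% in WT, 3.43% and 0.419% in Cnp-/-, 7.07% and 4.13% in 5xFAD, and 0.820% and 3.83% in Cnp-/-;5xFAD. WT replicates differed by more than any pair of genotype means. With Cnp loss the mean was 2.13% ± 1.75 against 5.61% ± 3.83 (SD, n = 4 libraries each; exact permutation p = 0.114, adjusted 0.229), and without WT replicate 2 the difference went from -3.48 to -1.996 points. The GABAergic share of neurons itself ranged from 9.29% to 33.8% and differed within a genotype (33.8% in WT replicate 1 and 15.9% in replicate 2), and its part in these shares was not tested. With 5xFAD the shares were 0.539% against 0.630% of neurons (exact permutation p = 0.743) and 3.96% against 3.77% of GABAergic nuclei (exact permutation p = 0.857).

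Other settings were tried for the share with Cnp loss. With at least 3 Sst UMIs, members made up 0.0983% of neurons with Cnp loss and 0.608% without, and with neurons thinned to 5000 UMIs they made up 0.0919% and 0.460%. Thinning left out the shallower neurons, from 296 of 4463 in 5xFAD replicate 1 to 2500 of 6838 in Cnp-/- replicate 2. In both cases the 4 Cnp-/- libraries lay below the other 4, at the smallest possible exact permutation p of 0.0286 (0.114 adjusted). Few nuclei were left there. With at least 3 Sst UMIs they were 9 and 4 in Cnp-/- and 1 and 10 in Cnp-/-;5xFAD, and after thinning 4 and 5, and 1 and 8. Both settings keep or tighten the definition's limit on Sst UMIs, so they are no separate support for a lower share. As shares of GABAergic nuclei the same settings gave overlapping sides, with exact permutation p-values of 0.114 and 0.0857, and so did at least 1 Sst UMI as a share of neurons (0.929% against 2.08%, exact permutation p = 0.0857). Nuclei defined by at least 2 UMIs each of Grin3a and Nxph1 in place of Sst, a choice made after seeing the data, numbered 1493 and made up 2.68% ± 0.491 of neurons with Cnp loss and 4.05% ± 0.905 without (SD, n = 4 libraries each; exact permutation p = 0.0571). Of GABAergic nuclei they made up 19.8% and 23.1% (exact permutation p = 0.629). The authors' cluster 8, which held 85.3% of members, made up 2.83% to 7.69% of neurons in the 4 libraries with Cnp and 4.01% to 5.48% in the 4 Cnp-/- libraries, so its share overlapped. Within cluster 8 the share of nuclei counted as Sst nuclei was 10.98% to 25.5% with Cnp and 1.98% to 8.06% in Cnp-/- libraries, without overlap. That share, looked at after the data were seen, uses the same limit on Sst UMIs as the definition. It restates the difference in Sst nuclei with another denominator and is no separate support. Fewer Sst cells and less Sst RNA per nucleus cannot be told apart from the counts of Sst nuclei alone.

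Sst RNA summed over all neuron nuclei is given as a description, since the members' own 1050 Sst UMIs are part of its 2731. It stood at 3.10 and 18.4 CPM in WT, 2.67 and 1.73 in Cnp-/-, 5.24 and 3.93 in 5xFAD, and 1.30 and 2.56 in Cnp-/-;5xFAD. The 4 Cnp-/- libraries were the lowest 4. The log2 fold change with Cnp loss was -1.69, and -0.81 without WT replicate 2, the highest library. In these sums edgeR called 0.0185% of 21584 genes with Cnp loss and DESeq2 0.839%. Sst was among the latter (adjusted p = 0.0307) and not the former (adjusted p = 0.524), and neither is read as support for the shares.

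**Figure D3:**
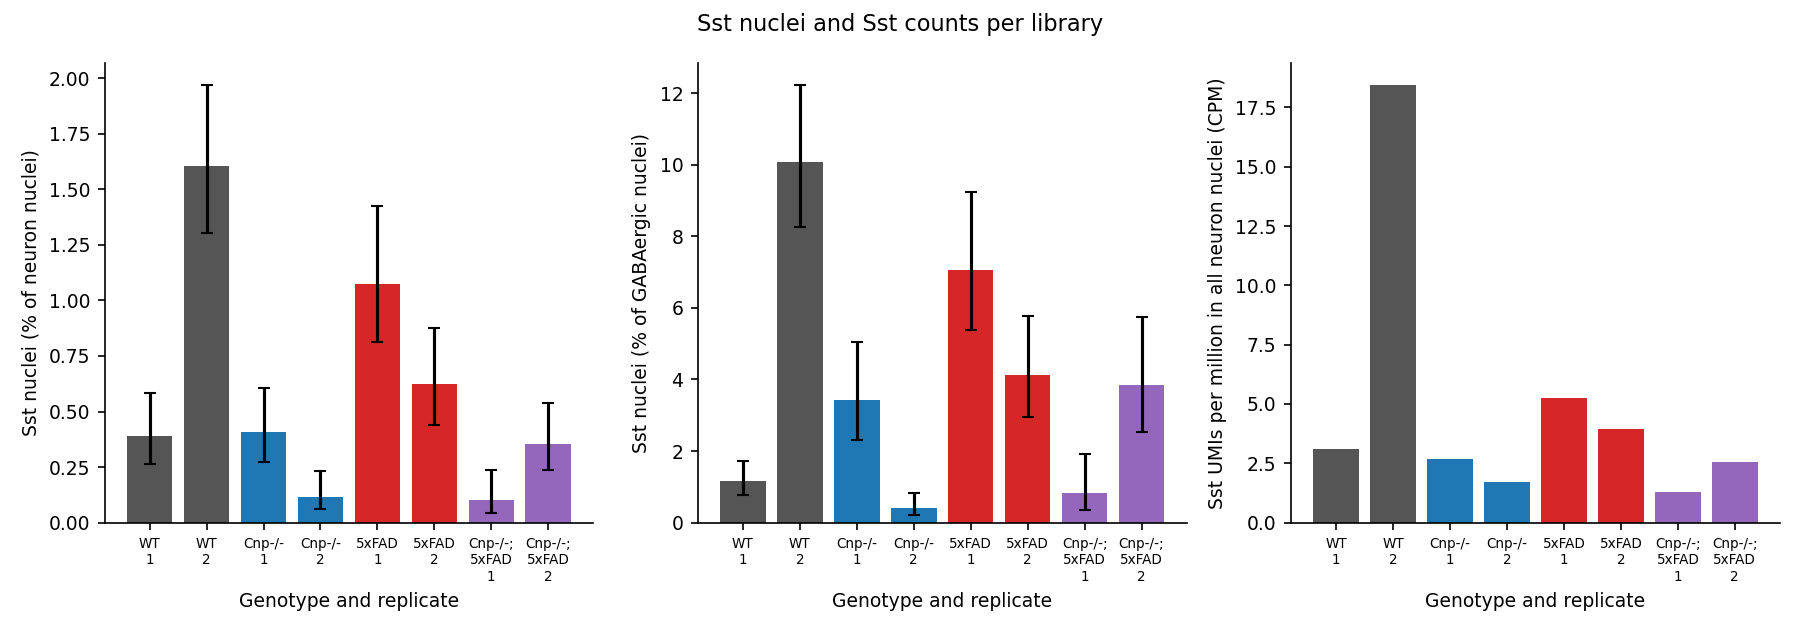
Sst nuclei as a percentage of neuron nuclei (left, with 95% Wilson intervals) and of GABAergic nuclei (middle), and Sst in CPM in all neuron nuclei (right), 1 bar per library. WT replicate 2 is the highest library in all 3 panels (1.60%, 10.1% and 18.4 CPM).

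Genotype effects on the other genes were tested with edgeR on the summed Sst profiles over 6279 genes. With Cnp loss, 8 genes passed an adjusted p of 0.05, or 0.127% of those tested, and all 8 were lower. At an unadjusted p under 0.05 there were 403 genes (6.42%), and DESeq2 called 6. In 7 of the 8 the 4 Cnp-/- libraries lay below all 4 others, which held for 5.11% of all genes in either direction. The 8 fell into 2 groups by where their molecules came from.

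The first group comprised 2 long non-coding RNAs that lie within 1546 kb of each other on chromosome 8. C130073E24Rik (ENSMUSG00000110246, minus strand, chr8:50743291-50916997, build GRCm38) was at 355 and 288 CPM in WT, 194 and 203 in Cnp-/-, 461 and 315 in 5xFAD, and 59.4 and 52.5 in Cnp-/-;5xFAD. Its log2 fold change with Cnp loss was -1.74 (SE 0.226, edgeR adjusted p = 0.00132). The second, 4930555F03Rik (ENSMUSG00000031559, plus strand, chr8:49370886-49548994), was at 284 and 168, 110 and 145, 242 and 222, and 89.1 and 26.3 CPM in the same order (log2 fold change -1.63, SE 0.287, edgeR adjusted p = 0.0193). For both, each Cnp-/- library lay below each library with Cnp, and the Cnp-/-;5xFAD libraries were lowest. UMIs came from 141 members for C130073E24Rik and 115 for 4930555F03Rik, and only 17.2% and 15.6% of them from nuclei outside cluster 8. The low side rested on few molecules. C130073E24Rik had 46 and 14 UMIs (10 and 3 nuclei) in Cnp-/- and 4 and 12 (2 and 7 nuclei) in Cnp-/-;5xFAD. For 4930555F03Rik these were 26 and 10 UMIs (8 and 2 nuclei) and 6 and 6 (3 and 4 nuclei). Within cluster 8 alone, a choice made after seeing the data, the log2 fold changes were -1.89 (adjusted p = 0.000149) and -1.84 (adjusted p = 0.0029).

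Another long non-coding RNA between them, Gm45323 (chr8:49959483-50013384, minus strand), was at 145 and 83.9 CPM in WT, 59.1 and 159 in Cnp-/-, 158 and 87.7 in 5xFAD, and 14.8 and 8.75 in Cnp-/-;5xFAD. Its log2 fold change was -1.93 (edgeR adjusted p = 0.132), with overlap between the sides. It did not pass. The annotation holds 14 genes from 4930555F03Rik to C130073E24Rik, of which 6 had UMIs in members. The remaining 3 of these were Gm45321, at 87.5 and 71.4, 67.5 and 72.5, 126 and 76.8, and 89.1 and 0 CPM in the same order, Gm45341, at 30.1 and 63.7, 21.1 and 43.5, 118 and 49.3, and 14.8 and 8.75 CPM, and Gm2516, at 112 and 79.1, 50.6 and 43.5, 163 and 74.0, and 44.5 and 35.0 CPM. The sides overlapped for Gm45321 and Gm45341 and did not for Gm2516. All 4 were named after their values were seen. In Cnp-/-;5xFAD replicate 2 the low values extended beyond Sst nuclei. There, C130073E24Rik was at 33.3 CPM over all neurons, the lowest of the 8 libraries (83.5 to 247 in the others), and at 52.2 in the Grin3a and Nxph1 nuclei, where the 2 Cnp-/- libraries, at 312 and 261, lay within and just below the range of the libraries with Cnp (277 to 318) and Cnp-/-;5xFAD replicate 1 was at 144. In the Grin3a and Nxph1 nuclei the log2 fold change of C130073E24Rik was -0.80 and did not pass the threshold (edgeR adjusted p = 0.9998).

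The second group comprised Tafa1, Hs3st4, Arpp21, Cacna2d1, Nell2 and Adarb2. Tafa1, a secreted chemokine-like protein, was at 577 and 240 CPM in WT, 25.3 and 0 in Cnp-/-, 80.7 and 57.6 in 5xFAD, and 0 and 13.1 in Cnp-/-;5xFAD (log2 fold change -3.52, SE 0.518, edgeR adjusted p = 0.00398). Its 542 UMIs came from 74 members, and 5 nuclei held 55.7% of them. A single WT replicate 1 nucleus held 125. Hs3st4, a heparan sulphate sulphotransferase, was at 118 and 85.9, 25.3 and 29.0, 141 and 74.0, and 14.8 and 21.9 CPM (-2.14, SE 0.372, edgeR adjusted p = 0.0193), and 5 nuclei held 54.5% of its UMIs.

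Arpp21, a phosphoprotein of forebrain projection neurons, was at 353 and 197, 84.4 and 145, 178 and 162, and 14.8 and 52.5 CPM (-1.65, SE 0.292, edgeR adjusted p = 0.0193). Cacna2d1, an auxiliary subunit of calcium channels, was at 350 and 129, 50.6 and 29.0, 143 and 164, and 0 and 48.1 CPM (-2.15, SE 0.409, edgeR adjusted p = 0.0332). Nell2, a secreted axon guidance protein, was at 62.9 and 72.4, 33.8 and 29.0, 104 and 98.7, and 0 and 17.5 CPM (-1.95, SE 0.357, edgeR adjusted p = 0.0244). These 3 were lower in each Cnp-/- library than in each library with Cnp. Adarb2 was at 361 and 424, 257 and 87.0, 118 and 313, and 44.5 and 21.9 CPM (-1.89, SE 0.363, edgeR adjusted p = 0.0332), and its sides overlapped.

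All 6 drew most of their UMIs from the 37 members outside cluster 8, namely 75.8% for Tafa1, 74.6% for Hs3st4, 74.5% for Arpp21, 69.0% for Cacna2d1, 67.5% for Adarb2 and 54.4% for Nell2, although these members held 20.9% of all member UMIs. Of the 37, 35 came from libraries with Cnp. In excitatory nuclei, 5 of these genes were far more abundant, with medians of 1339 CPM for Tafa1, 543 for Hs3st4, 1784 for Arpp21, 956 for Cacna2d1 and 548 for Nell2. Within cluster 8 none of the 6 passed. There the log2 fold changes were -2.05 for Tafa1 (adjusted p = 0.226), -0.25 for Hs3st4, -0.17 for Arpp21, -1.75 for Cacna2d1, -2.01 for Nell2 and -2.14 for Adarb2 (adjusted p = 0.208). In the Grin3a and Nxph1 nuclei, 4 of the 8 called genes were lower and the other 4 were not, none past the threshold. The part of the nuclei outside cluster 8 in these calls was measured by this restriction alone, which also removed nuclei and depth.

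**Figure D4:**
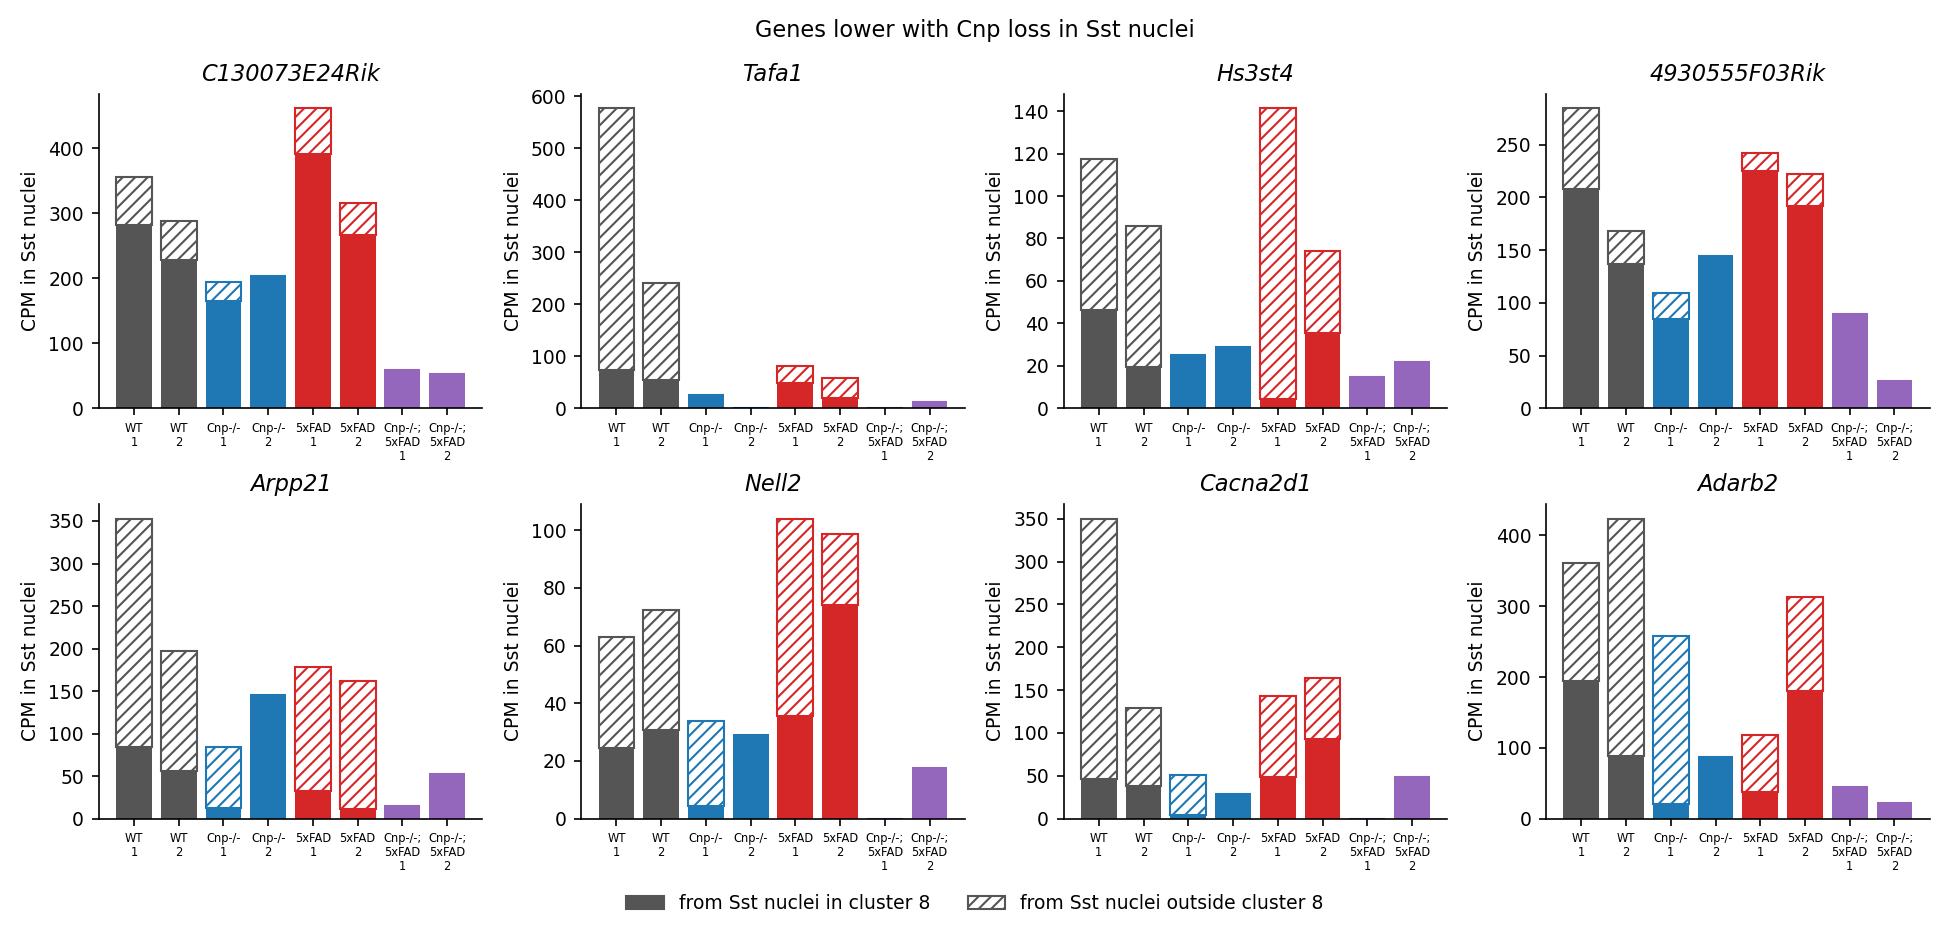
CPM of the 8 genes lower with Cnp loss in the summed Sst nuclei, 1 bar per library; the filled part comes from Sst nuclei in the authors' cluster 8 and the hatched part from the other 37. Over all libraries the hatched part holds 75.8%, 74.6% and 74.5% of the UMIs of Tafa1, Hs3st4 and Arpp21 and 17.2% and 15.6% of those of C130073E24Rik and 4930555F03Rik.

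The calls also leaned on single libraries. Leaving out either WT or either 5xFAD library kept all 8 among the called genes. Leaving out Cnp-/- replicate 1 kept 3 of them, and leaving out Cnp-/-;5xFAD replicate 2, the deeper of its pair, kept 0. The log2 fold changes stayed below 0 in all 8 of these fits, from -1.87 to -1.59 for C130073E24Rik, -1.98 to -1.14 for 4930555F03Rik, -2.41 to -1.84 for Hs3st4 and -6.52 to -3.17 for Tafa1.

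Within cluster 8 the fit over 5590 genes called 5 with Cnp loss (0.0894%). Beside the 2 non-coding RNAs these were Pard3b (log2 fold change 1.14, adjusted p = 0.0029), Ralyl (0.79, adjusted p = 0.0295) and Il1rapl2 (-1.26, adjusted p = 0.0247). Over all members, Pard3b was at 221 and 216 CPM in WT, 426 and 580 in Cnp-/-, 177 and 164 in 5xFAD, and 238 and 245 in Cnp-/-;5xFAD (log2 fold change 0.86, SE 0.173, edgeR adjusted p = 0.0540). The sides did not overlap. The gain was seen against the matching genotype with Cnp in both pairs, and 101 of 252 members held a UMI. In Cnp-/-;5xFAD replicate 1 all 16 Pard3b UMIs came from 1 nucleus. In Cnp-/- replicate 1 a single nucleus held 38 of the 101 UMIs, so the values rest partly on single nuclei. The sign for Pard3b turned with at least 3 Sst UMIs (-0.73) and in the Grin3a and Nxph1 nuclei (-0.083). Ralyl, an RNA-binding protein, was at 1257 and 1535, 1789 and 1971, 1147 and 1543, and 2672 and 2503 CPM (0.72, edgeR adjusted p = 0.0980). The next genes by p in the upward direction were Ttc19 (0.68), Npas3 (0.69) and Chrm3 (0.67), none past the threshold.

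The genes of Sst lineage and identity did not pass in either direction. Of the 20 listed, 17 were tested and 14 had a log2 fold change above 0 with Cnp loss, where 48.2% of all genes did. Their median was 0.38 against -0.014 for all genes, and 8 of the 17 had an unadjusted p under 0.05, as did 6.42% of all genes. Nxph1 was at 2881 and 2680 CPM in WT, 3140 and 3072 in Cnp-/-, 2939 and 2725 in 5xFAD, and 4959 and 3675 in Cnp-/-;5xFAD. All 4 Cnp-/- libraries lay above the other 4 (log2 fold change 0.41, edgeR adjusted p = 0.531), as they did for Kcnc2 (0.44, edgeR adjusted p = 0.528). These were 2 of the 17 tested genes, where 5.11% of all genes did not overlap.

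Satb1 was at 333 and 371 in WT, 371 and 522 in Cnp-/-, 320 and 384 in 5xFAD, and 624 and 586 in Cnp-/-;5xFAD (0.56, edgeR adjusted p = 0.320). Elfn1 (0.47), Npas1 (0.85) and Dlx1 (0.95) had values above 0, and Crhbp (-0.54), a binding protein of corticotropin-releasing hormone, was the lowest. Members outside cluster 8 were 35 of 193 in libraries with Cnp and 2 of 59 in Cnp-/- libraries. Within cluster 8 alone the list's median was 0.14 with 12 of 17 above 0, and with at least 3 Sst UMIs it was 0.18. In the Grin3a and Nxph1 nuclei it was 0.24, with 18 of 19 above 0, but those nuclei were chosen on 2 of the list's genes.

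**Figure D5:**
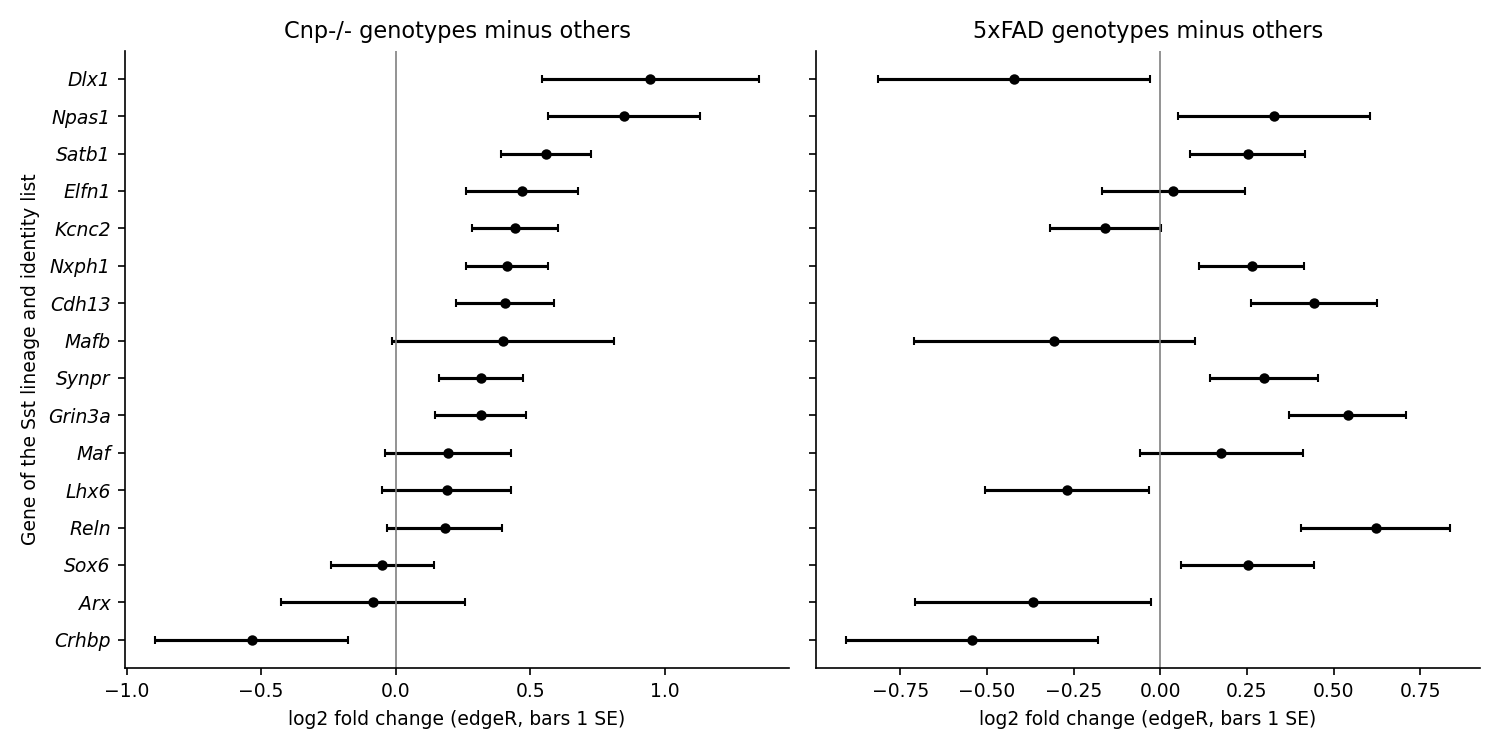
Log2 fold changes (points) with 1 SE (bars) from edgeR for 16 of the 17 tested genes of the Sst lineage and identity list, with Cnp loss (left) and with 5xFAD (right). Most points lie above 0 with Cnp loss, where 14 of all 17 tested did, and none passed the adjusted threshold.

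With 5xFAD no gene passed in the edgeR test over all members (297 genes at an unadjusted p under 0.05, or 4.73%; DESeq2 called 0, with 95 at an unadjusted p under 0.05). The lowest p belonged to Adarb2 (log2 fold change -1.90, edgeR adjusted p = 0.278). It passed in 5 of the 8 fits that left out a library and was at -0.56 (adjusted p = 1.000) within cluster 8, outside which lay members with 67.5% of its UMIs. It was followed on the lower side by Kcnj3 (-0.81), Gm32647 (-0.91), Nrp2 (-2.03) and Pdzrn3 (-1.11). On the higher side stood Adamts18 (1.92), Samd4 (0.83), Myrip (0.78), Samd5 (0.63) and Crtac1 (1.12). Adamts18 rests on few molecules, at a mean of 54.2 CPM with and 14.2 without 5xFAD. Within cluster 8, 2 genes were called (0.0358%), Pard3b (-1.09, adjusted p = 0.0139) and the long non-coding RNA Gm32647 (-1.24, adjusted p = 0.0299). Pard3b thus passed in cluster 8 in both comparisons, upward with Cnp loss and downward with 5xFAD.

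Of the lineage list, 11 of 17 genes had a value above 0 with 5xFAD (median 0.25; 49.7% of all genes above 0). Reln differed without overlap, at 549, 587, 553 and 304 CPM in the 4 libraries without the transgenes and 647, 609, 1381 and 643 in the 4 with them (log2 fold change 0.62, edgeR adjusted p = 0.972), where 2.39% of all genes did not overlap. Grin3a gave 0.54 (edgeR adjusted p = 0.944). With at least 3 Sst UMIs the list's median was -0.08. Nos1 gave 1.33 and spread widely, at 129 and 52.1 CPM in WT, 46.4 and 232 in Cnp-/-, 115 and 367 in 5xFAD, and 14.8 and 302 in Cnp-/-;5xFAD. The 20 nuclei with most Nos1 were spread unevenly over the libraries (8 in 5xFAD replicate 2, at most 3 elsewhere), and their part in this value was not tested.

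No gene passed for the interaction of Cnp loss and 5xFAD (311 genes at an unadjusted p under 0.05, or 4.95%; DESeq2 called 0, with 73 at an unadjusted p under 0.05). Among the lowest p-values were those of L3mbtl4 (-4.87), Nrp2 (-4.43), C130073E24Rik (-2.11, edgeR adjusted p = 0.327) and Sox5 (-1.96) below 0 and of Ror2 (3.11), Ctnnbl1 (2.31), Lurap1l (1.78), Rnf19a (2.77) and Cntn4 (1.22) above 0, all as log2 values.

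The remaining lists held no called gene other than Adarb2. Of the 3 tested markers of other interneurons, only Erbb4 lay above 0 with Cnp loss (0.59), the direction of most lineage genes. In all, 89 of the 218 listed genes were tested, as the others had too few UMIs. Among 12 tested peptide processing genes, 6 had a value above 0 with Cnp loss (median 0.0030). Pam was at 0.48 (edgeR adjusted p = 0.478) and Pcsk2 at -0.52 (edgeR adjusted p = 0.660). With 5xFAD, Chga, a granin of dense-core vesicles, was at 26.7 ± 3.38 CPM against 56.1 ± 21.3 without (SD, 4 libraries each), with no overlap, as in 2.39% of all genes, and a log2 fold change of -0.94 (edgeR adjusted p = 0.972). Of the 6 tested genes of GABA synthesis and transport, 2 lay above 0 with Cnp loss and 3 with 5xFAD.

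All 17 genes of the axonal node and paranode were tested, and 11 lay above 0 with Cnp loss (median 0.09). Cntnap2 gave 0.45 (edgeR adjusted p = 0.417) and the adhesion protein Nrcam -0.65 (edgeR adjusted p = 0.392). Of 9 tested genes of amyloid precursor processing, 4 lay above 0 with Cnp loss and 5 with 5xFAD, where Aplp1 had the highest value (0.98, edgeR adjusted p = 0.972). Only 2 immediate early genes and 2 stress genes had enough UMIs, with a lowest adjusted p of 0.886 with Cnp loss. The Sst nuclei held too few molecules to follow these last groups.

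Whether genotype effects in Sst nuclei differed from those in other neurons was tested as an interaction with cell class, with the library as a block. Against Pvalb nuclei, 2 of 6753 genes differed for Cnp loss (0.0296%), Tafa1 and Hs3st4, both lower in Sst nuclei. Pvalb nuclei held Tafa1 at 188 and 233 CPM in WT, 117 and 88.2 in Cnp-/-, 63.5 and 0 in 5xFAD, and 723 and 132 in Cnp-/-;5xFAD. For 5xFAD, 3 genes differed (0.0444%), Gpc5, Thsd7b and Dscam. In Sst nuclei Dscam, a neuronal adhesion protein, was at 711 and 685 CPM in WT, 675 and 942 in Cnp-/-, 906 and 861 in 5xFAD, and 995 and 809 in Cnp-/-;5xFAD, whereas in Pvalb nuclei it was at 523 and 619, 292 and 256, 212 and 187, and 182 and 150. The change was thus mainly on the Pvalb side, and the 2 non-coding RNAs of chromosome 8 did not differ between the classes past the threshold (adjusted p = 1.000 and 0.953).

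Against the far deeper excitatory profiles, 62 of 17549 genes differed for Cnp loss (0.353%, 16 higher and 46 lower in Sst nuclei) and 20 for 5xFAD (0.114%). For Cnp loss the median log2 difference over all genes was -0.28, and DESeq2 size factors gave 22 higher and 33 lower with a median of -0.19, so the split depends on scaling. When each library's excitatory nuclei were reduced to the number of its Sst nuclei, 3 genes were called for Cnp loss (Tafa1, Hs3st4 and Cacna2d1) and 1 for 5xFAD (Ndst4). All 3 of the former are among the genes whose UMIs came mostly from members outside cluster 8.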

How the data were processed

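Nuclei were isolated from frozen hemispheres and sequenced with the 10x Chromium 3' assay. The authors aligned reads to mm10 with Cell Ranger 6.1.2 (per the submitters' processing notes), removed ambient RNA with CellBender, filtered nuclei and annotated cell types with Seurat. The deposited values are raw UMI counts per gene and nucleus (32285 genes), with a cell type and cluster for each nucleus. Treatment of doublets and counting of introns are not given in the sources used here, and no further doublet removal was done.

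Counts of the chosen nuclei were summed per library. Genes were tested with edgeR 4.0.16 (quasi-likelihood, filterByExpr, TMM, 1 mean per genotype, R 4.3.3) with Benjamini-Hochberg adjustment over all genes, two-sided, threshold 0.05. Cnp loss is the mean of both Cnp-/- genotypes minus the mean of the other 2, and 5xFAD likewise. CPM are UMIs per 1000000 UMIs of the summed profile. Shares were tested with exact permutation over 4 against 4 libraries. Intervals are 95% Wilson intervals and cover counting error only. Gene positions come from GENCODE vM21 (GRCm38).

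The fit was tested on simulated counts for Cnp loss in Sst nuclei over 6279 genes, where it recovered 57.6% of 66 genes changed by 1 log2 unit and 97.0% of 67 changed by 2, with 12 false calls of 182. The simulated counts had the same spread for every gene and no clumping of UMIs in single nuclei. These rates may therefore not hold for the real profiles. The nuclei, gene lists and tests were chosen with earlier results of these data known. Named are list genes, called genes, or the 5 lowest p-values per direction where fewer passed, and the 15 genes with the highest ratio to other classes. A few genes that meet this rule are not reported here. Alternatives were DESeq2 1.42.0, other filters and definitions, thinning of nuclei to 5000 UMIs, and leaving out each library.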

Additional observations from a re-analysis of the deposited data

Results flagged for a closer look

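Several effects differed between Sst nuclei and another class by a test of the difference itself (edgeR, interaction of class and genotype, values as the log2 effect in Sst nuclei minus that in the other class). Against Pvalb nuclei the difference for Cnp loss was -4.46 for Tafa1 (adjusted p = 0.0418) and -3.31 for Hs3st4 (adjusted p = 0.00448). These held in 4 and 6 of the 8 fits that left out a library. Members outside cluster 8 supplied 75.8% of the Tafa1 and 74.6% of the Hs3st4 UMIs in Sst nuclei, and their part in these differences was not tested. For 5xFAD against Pvalb nuclei the difference was 4.36 for Gpc5 (adjusted p = 0.00632), 2.29 for Thsd7b (adjusted p = 0.00994) and 1.39 for Dscam (adjusted p = 0.0320), held in 7, 5 and 3 of the 8 fits. Gpc5 in Sst nuclei ranged from 0 CPM in Cnp-/- replicate 2 to 1796 in Cnp-/-;5xFAD replicate 1. Thsd7b in Pvalb nuclei was at 8.54 to 42.3 CPM in the libraries with 5xFAD and at 57.3 to 140 in those without.

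Against excitatory nuclei, the 8 genes called with Cnp loss in Sst nuclei differed between the classes, by -3.31 for Tafa1, -2.35 for Hs3st4, -2.16 for Cacna2d1, -2.08 for Nell2, -1.90 for Adarb2, -1.74 for Arpp21, -1.18 for 4930555F03Rik and -1.13 for C130073E24Rik. These 8 were picked for their change in the same summed Sst profiles, so the differences are no separate support for that change. With excitatory nuclei reduced to the number of Sst nuclei, Tafa1, Hs3st4 and Cacna2d1 stayed past the threshold and the other 5 did not, at -1.85 for Nell2 (adjusted p = 0.0869), -1.59 for Arpp21 (adjusted p = 0.0577), -0.71 for Adarb2, -0.59 for 4930555F03Rik and -0.43 for C130073E24Rik. For 5xFAD, Ndst4 differed by 2.41. It was at 175 and 52.1 CPM in WT, 8.44 and 29.0 in Cnp-/-, 110 and 203 in 5xFAD, and 0 and 48.1 in Cnp-/-;5xFAD, and without Cnp-/-;5xFAD replicate 2 the difference was -4.13, so this value rests on that library.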

How the results depend on the processing

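The count of genes called with Cnp loss was 49 with no filter on low counts, 16 without the tenth of members with most glial UMIs, 5 in cluster 8 only, 4 with Lhx6-positive members only, 2 without members of very high UMIs, 2 with only libraries of at least 20 members, 1 with at least 3 Sst UMIs, 0 with 5 nuclei per library and 0 with Grin3a and Nxph1 in place of Sst, and ranged from 0 to 26 over fits that left out a library. For 5xFAD the count was 9 with no filter and 2 in cluster 8 (0 to 3 over left-out libraries). For the interaction it was 1 with no filter, 1 with Lhx6-positive members and 1 with libraries of at least 20 members (0 to 4). Against Pvalb nuclei no filter gave 23 and 25 genes, with 0 to 12 and 0 to 19 over left-out libraries, for Cnp loss and 5xFAD. Against excitatory nuclei equal numbers of nuclei gave 3 and 1, with 24 to 62 and 12 to 22 over left-out libraries. The cluster 8, Grin3a and Nxph1, and 20-member settings were chosen after seeing the data. For Cnp loss in Sst nuclei the genes tested ran from 1566 with 5 nuclei per library to 19180 with no filter, so the counts are not on 1 scale. As shares of genes tested, no filter gave 0.255% and leaving out the most glial members 0.293%, against 0.127% in the main fit. With no filter 47 of the 49 were lower, at a median log2 fold change of -0.37 over all genes.

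Sst over all neurons with Cnp loss was -1.70 by DESeq2, past its threshold, and -1.69 by edgeR, not past it. Over left-out libraries its value with 5xFAD ran from -1.07 to 0.20 and its interaction from -0.72 to 1.81. The share of Sst nuclei with Cnp loss ran from -0.856 to -0.451 points of neurons and from -4.97 to -1.996 of GABAergic nuclei over left-out libraries. With 5xFAD these ran from -0.270 to 0.233 and from -0.922 to 2.29, and turned sign to 0.156 with Grin3a and Nxph1, and to -0.613 and -0.572 with at least 3 Sst UMIs and after thinning. Of GABAergic nuclei it was 9.76 points with Grin3a and Nxph1 (exact permutation p = 0.0857) against 0.195. The Calb2 share with Cnp loss was 4.198 points at 2 or more UMIs and ran from -6.20 to 0.669 over left-out libraries.

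In the Grin3a and Nxph1 nuclei the sign turned for Pard3b (-0.083), Tafa1 (0.035), Cacna2d1 (0.14), Nell2 (0.26), Arpp21 (0.15), Pcsk2 (0.14) and Nrcam (0.14) with Cnp loss, and for Samd4 (-0.15) and Pdzrn3 (0.46) with 5xFAD. With at least 1 Sst UMI it turned for Il1rapl2 with Cnp loss (0.12), Adarb2 (0.39) and Pdzrn3 (0.0035) with 5xFAD, and Ctnnbl1 in the interaction (-0.098). With at least 3 it turned for Pard3b (-0.73), Kcnc2 (-0.074), Erbb4 (-0.44), Cntnap2 (-0.030) and Il1rapl2 (0.13) with Cnp loss. Nos1 with 5xFAD was -0.68 in Lhx6-positive members and ran from -0.60 to 1.85 over left-out libraries, and Ndst4 against excitatory nuclei from -4.13 to 2.99. The causes were not tested.

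Correlations of same-numbered deviations were -0.0099 to 0.038. They come from Sst profiles as small as 67354 UMIs, where counting error can hide a shared difference. These values therefore cannot decide whether the replicate numbers pair the libraries, and the main fit did not pair them. In all 4 genotypes, however, the summed RNA quality list and the share of nuclei with Npy were higher in replicate 2, and the immediate early genes in replicate 1. Both lists moved the same way in the excitatory nuclei in all 4 genotypes. With the replicate block, 7 genes were called with Cnp loss and 0 in the other contrasts. Profiles of 5 to 24 nuclei limit the depth of the Cnp-/- side.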
